A study of Mus musculus with 18 samples.

Results

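The BCL2 family genes studied here are the 10 pro-survival and pro-death genes Bcl2, Bcl2l1, Mcl1, Bax, Bak1, Bbc3, Pmaip1, Bmf, Bcl2l11 and Bid, found by symbol among 22612 rows of the tumour cell table and by the Ensembl ID of each symbol among 55401 rows of the endothelial table. All 10 were present in both tables, and all 10 had a mean value of at least 10 and were tested, with 18511 endothelial and 11602 tumour cell genes tested in all. RNA of 18 mouse libraries was sequenced, in 6 groups of 3. The 12 endothelial libraries were blood vessel endothelial cells (BECs) of the fat pad (BEC normal), BECs of EO771 primary tumours (BEC tumour), high endothelial cells (HECs) of lymph nodes without tumour (HEC normal) and HECs of lymph nodes from mice with EO771 tumours of the fat pad, which the labels call lymph node metastases (HEC tumour), all sorted from wild-type female C57BL/6 mice as CD31-high cells without the leukocyte marker CD45, with PNAd, the sugar epitope of high endothelium, marking HECs. The other 6 libraries were EO771, a breast cancer line of the mouse, grown in culture with vehicle (DMSO in saline) or with 12-HETE, a lipid made from arachidonic acid by 12-lipoxygenase. The labels give no age, the study's methods have the mice as a few weeks old when obtained, and the labels do not say how many mice a library pooled.

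BCL2 family proteins decide whether the outer membrane of the mitochondrion stays closed. Pro-survival members (BCL2, BCL-XL from Bcl2l1, and MCL1) hold in check the effectors BAX and BAK, which otherwise form pores that release cytochrome c and start the caspase cascade. BH3-only proteins (PUMA from Bbc3, BIM from Bcl2l11, BMF, BID and NOXA from Pmaip1) sense stress and either bind the pro-survival proteins or activate the effectors directly. In endothelium, BIM and the pro-survival proteins are known for setting vessel regression and survival, and in tumour cells BH3-only proteins carry much of the signal from damage and growth factor loss to death.

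Endothelial totals ranged from 56.4 to 79.4 M and EO771 totals from 17.3 to 18.6 M. The low endothelial values rose in steps of about 3.74, so one unit there was not one fragment, and totals divided by the step came to 15.0 to 21.2 M. The summed level of 10 endothelial markers was 2710 to 3989 CPM (the value per library total, scaled) in the endothelial libraries. Of these markers, Cldn5 was at 232 to 280 CPM in BEC normal and at most 2.01 CPM in the other endothelial groups. Kdr was at 324 to 381 CPM in BEC normal and at 66.6 to 143 CPM in the others. The 6 high endothelial markers summed to 975 to 3057 CPM in HECs against 6.21 to 11.3 CPM in BECs. That sum was carried by Glycam1, Chst4 and Fut7. Gcnt1 was no higher in HECs (4.10 to 6.08 CPM) than in BECs (4.56 to 7.87 CPM), Enpp2 overlapped, and Madcam1 was at 0 in HEC normal and at most 0.257 CPM in HEC tumour. Chst4 itself ranged from 0.0596 CPM in 1 HEC normal library to 297 CPM in another, against 916 to 939 CPM in HEC tumour and 0 in BECs. The 8 myeloid markers summed to 1462 to 1961 CPM in BEC tumour and to 108 to 511 CPM in the other endothelial groups. The 9 fibroblast and pericyte markers summed to 845 to 855 CPM in BEC normal and to at most 123 CPM in the other endothelial groups. In BEC tumour the myeloid sum was mostly Lyz2 (567 to 919 CPM) and Cd68 (836 to 924 CPM), and Cd68 was also at 350 to 503 CPM in HECs. The fibroblast and pericyte sum of BEC normal was mostly Acta2 (621 to 622 CPM) and Col1a1 (117 to 130 CPM). Lum was at 0 there, Dcn overlapped BEC tumour (2.14 to 3.55 against 3.08 to 10.3 CPM) and Pdgfra overlapped HEC normal (13.9 to 17.6 against 15.3 to 16.9 CPM). Of the myeloid genes, Adgre1 was at 14.9 to 37.5 CPM in BEC tumour and at most 0.0583 CPM in the other endothelial groups, and Ptprc, which encodes CD45, at 5.95 to 12.8 CPM against at most 0.435 CPM. S100a8 went the other way, at 0.391 to 0.706 CPM in BEC tumour, 0.787 to 1.56 CPM in HEC normal and 2.66 to 3.38 CPM in HEC tumour. S100a9 in BEC tumour (0.164 to 0.375 CPM) overlapped HEC normal (0.282 to 0.575 CPM) and HEC tumour (0.337 to 1.40 CPM). The 7 epithelial markers summed to 19.95 to 93.56 CPM in BEC tumour, 3.606 to 6.925 CPM in BEC normal, 27.93 to 31.21 CPM in HEC normal and 31.24 to 34.09 CPM in HEC tumour. In BEC tumour Krt8 ran from 0.526 to 33.2 CPM between libraries, and in HECs the sum was mostly Krt19. The part of these transcripts in the results below was not tested. Cell type and tissue cannot be told apart in the comparisons of HECs with BECs, since no tissue gave both, and BEC normal and BEC tumour also came from different tissues. In bulk RNA, fewer cells of a type and less RNA per cell cannot be told apart.

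Per length of transcript, the effectors and Mcl1 led the family in BEC normal, whereas in HECs Bax and Mcl1 had the highest means and Bak1 and Bcl2l1 overlapped. In BEC normal the TPM level (the value per summed exon length of the gene, scaled to a fixed library total) was 277 ± 56.8 (SD, n = 3) for Bax, 199 ± 21.8 for Bak1, 160 ± 4.47 for Mcl1, 42.9 ± 3.65 for Bcl2l1 and 30.1 ± 11.3 for Bid. Bbc3 followed with 13.2 ± 1.96 TPM and Pmaip1 with 11.4 ± 3.25 TPM, then Bcl2 with 4.93 ± 1.32 TPM, Bcl2l11 with 4.23 ± 1.11 TPM and Bmf with 1.02 ± 0.363 TPM. The library ranges of Bax and Bak1, of Bbc3 and Pmaip1, and of Bcl2 and Bcl2l11 overlapped, so these neighbours in the order did not separate beyond their spread. In HEC normal the first places went to Bax (331 ± 34.3 TPM), Mcl1 (202 ± 8.71 TPM), Bak1 (111 ± 58.5 TPM), Bcl2l1 (91.7 ± 44.6 TPM) and Bbc3 (88.6 ± 5.85 TPM), and the ranges of Bak1, Bcl2l1 and Bbc3 overlapped. Pmaip1 was the lowest member in both HEC groups, at 0.765 ± 0.209 TPM in HEC normal and 0.693 ± 0.244 TPM in HEC tumour, where its range overlapped that of Bmf.

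In EO771 cells Pmaip1 stood among the leading members. With vehicle, Bax stood at 441 ± 114 TPM (SD, n = 3), Mcl1 at 261 ± 5.49 TPM, Bcl2l1 at 241 ± 9.67 TPM and Pmaip1 at 173 ± 13.2 TPM, above Bak1 with 148 ± 6.13 TPM. Bid (82.7 ± 2.62 TPM), Bbc3 (68.0 ± 11.7 TPM) and Bcl2l11 (35.7 ± 1.67 TPM) followed, and Bcl2 (3.32 ± 1.10 TPM) and Bmf (2.40 ± 0.482 TPM) were the lowest, with overlapping ranges, as had Bid and Bbc3. The endothelial and EO771 tables were made separately, so a level in one was not tested against a level in the other.

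Summed by class, BH3-only transcripts made up 8.17 ± 1.85% (SD, n = 3) of the TPM of the 10 members in BEC normal, 8.91 ± 1.15% in BEC tumour, then 14.1 ± 1.48% in HEC normal and 10.1 ± 0.412% in HEC tumour. Only HEC normal, with 12.6 to 15.5%, lay wholly above the other 3 endothelial groups, whose libraries ran from 6.06 to 10.4%. Bbc3 made up most of the BH3-only sum in HEC normal, with 88.6 of 120.7 TPM on average. Bcl2l11 and Bmf were also higher there than in BEC normal. Bid (14.1 against 30.1 TPM) and Pmaip1 (0.765 against 11.4 TPM) were lower. Pro-survival transcripts made up 28.0 ± 1.74% in BEC normal and 42.5 ± 6.09% in HEC tumour. These groups differ in cell type, tissue and tumour. Between their means lay BEC tumour with 29.7 ± 5.49% and HEC normal with 34.6 ± 4.92%. The libraries of HEC normal (29.4 to 39.2%) overlapped those of HEC tumour (35.4 to 46.2%). The effectors held 63.8 ± 3.41% in BEC normal and 47.5 ± 6.0% in HEC tumour. BEC tumour had 61.4 ± 5.5% and HEC normal 51.3 ± 5.98%. Each sum includes a gene whose libraries differed widely within groups. In HEC tumour Bcl2l1 was at 85.2, 187 and 186 TPM and Bak1 at 181, 81.2 and 88.9 TPM. In EO771 cells the BH3-only share was 24.9 ± 1.76% with vehicle and 19.5 ± 0.639% with 12-HETE, and the pro-survival share 34.9 ± 2.99% and 44.1 ± 0.331%. The effector share was 40.2 ± 4.19% and 36.4 ± 0.844%. The pro-survival sum itself was nearly the same, at 504.9 ± 11.3 TPM with vehicle and 512.2 ± 12.2 TPM with 12-HETE. The effector sum was 589 ± 120 and 423.1 ± 13.4 TPM, and the BH3-only sum 362 ± 22.4 and 226.5 ± 6.51 TPM. These shares are a description over the members and were not tested.

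**Figure D1:**
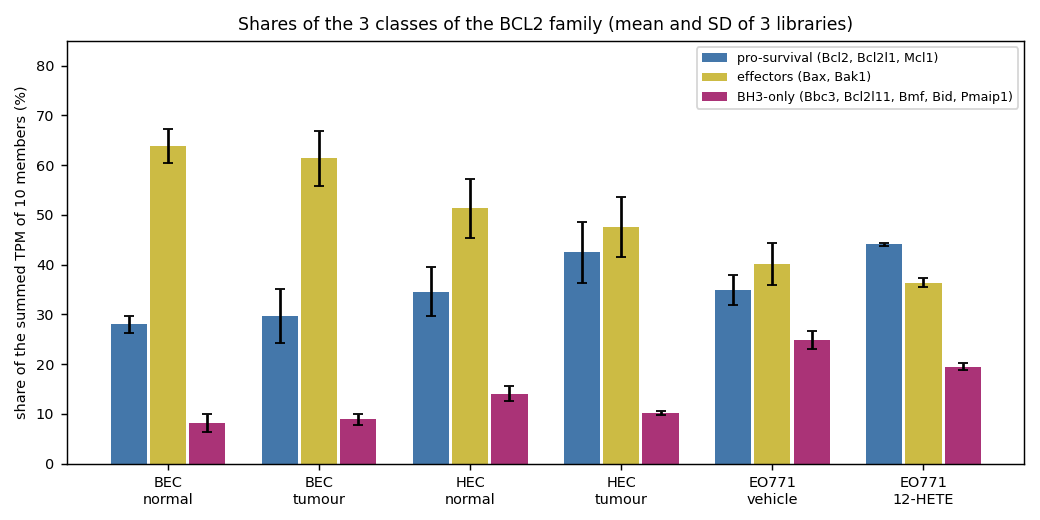
Share (%) of the summed TPM of the 10 BCL2 family genes held by pro-survival genes, effectors and BH3-only genes in each of the 6 groups; bars are means and lines are SDs of 3 libraries. The BH3-only share was 14.1% in HEC normal, mostly from Bbc3, against 8.17 to 10.1% in the other endothelial groups. It was 24.9% and 19.5% in EO771 cells with vehicle and 12-HETE.

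Bbc3 and Bcl2l11 shared one order of levels over the 4 endothelial groups, lowest in BEC normal, then BEC tumour, HEC tumour and HEC normal. Their upstream sequences are shown because these 2 members moved together in endothelium and were the only ones with a promoter window that held the FOXO motif. The motif letters TGTTTAC were searched on both strands in the 300 bases around each RefSeq start (250 before, 50 after; GRCm38.p6). Of 32851 windows of all genes, 3.65% held the motif, and of the 16 windows of 9 members (Pmaip1 is named only) 2 did. These were 1 of the 2 windows of Bcl2l11 and 1 of the 3 windows of Bbc3. Members with several windows had more places for a match, and which start these cells used was not tested. The 250 bases before each start are given on the + strand, with the match in capitals; the Bcl2l11 match reads on the - strand.
Bcl2l11, chr2:128125788-128126037: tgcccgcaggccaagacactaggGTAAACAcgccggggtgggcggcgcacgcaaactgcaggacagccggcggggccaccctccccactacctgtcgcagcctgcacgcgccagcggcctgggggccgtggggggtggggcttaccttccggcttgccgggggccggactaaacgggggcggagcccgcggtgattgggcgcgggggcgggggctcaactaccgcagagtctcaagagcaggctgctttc
Bbc3, chr7:16310011-16310260: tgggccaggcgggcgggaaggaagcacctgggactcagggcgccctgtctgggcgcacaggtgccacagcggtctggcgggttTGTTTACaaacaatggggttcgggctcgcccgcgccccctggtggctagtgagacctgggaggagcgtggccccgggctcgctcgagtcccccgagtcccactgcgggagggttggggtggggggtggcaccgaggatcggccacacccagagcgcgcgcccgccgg
The match began 227 bases before the start of Bcl2l11 and 167 bases before that of Bbc3. The Bcl2l11 stretch ended just before the first exon, and the Bbc3 stretch overlapped no exon and lay within an intron of 2 longer Bbc3 transcripts. Among the other motifs searched on both strands, the E-box CACGTG was in a Bbc3 and a Bax window (7.15% of all windows), the p53 half-site in a Bmf and a Bax window (8.36%), and the interferon-stimulated response element (3.44%) and the cyclic AMP element TGACGTCA (1.79%) in no member window. A match describes letters, not binding.

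Bbc3 (chromosome 7, 16308393-16318205, + strand), the gene of the BH3-only protein PUMA, showed the clearest pattern of the family. Its normalised counts (deposited values divided by the size factor of each library) were 702, 887 and 654 in the BEC normal libraries, 1937, 2034 and 1948 in BEC tumour, then 5462, 4881 and 5034 in HEC normal, and 3337, 3273 and 3052 in HEC tumour. No group overlapped another. A difference is named called here when it passes both an adjusted p of 0.05 and a 2-fold change. By DESeq2 with Benjamini-Hochberg adjustment, Bbc3 in HEC normal exceeded BEC normal by 2.78 ± 0.11 on the log2 scale (SE; 6.87-fold, adjusted p = 8.4e-140), and BEC tumour exceeded BEC normal by 1.40 ± 0.11 (2.64-fold, adjusted p = 1.42e-35). With tumour it was lower in HECs, with a log2 fold change of -0.67 ± 0.11 (adjusted p = 4.04e-09), which passed the adjusted p but not the 2-fold limit. Tumour therefore went with a higher level in BECs and a lower level in HECs, and the difference between the 2 changes was itself called (log2 fold change -2.07 ± 0.15, adjusted p = 5.35e-40). In BECs the tissue also changed, from fat pad to tumour, whereas both HEC groups came from lymph nodes, so tissue and tumour cannot be told apart in the BEC change. Between HEC tumour and BEC tumour the difference narrowed to 0.71 ± 0.11 (adjusted p = 2.6e-10).

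Bcl2l11 (chromosome 2, 128126038-128162547, + strand), the gene of BIM, read 1034, 647 and 1025 normalised counts in BEC normal, 1480, 1450 and 1429 in BEC tumour, then 3524, 3374 and 2115 in HEC normal and 1712, 2084 and 2176 in HEC tumour. HEC normal replicate 3 fell into the range of HEC tumour, and the other neighbouring groups did not overlap. Bcl2l11 was higher in HECs than in BECs without tumour (log2 fold change 1.73 ± 0.22, DESeq2 adjusted p = 1.15e-14). Its changes with tumour were 0.69 ± 0.22 in BECs (adjusted p = 0.00412) and -0.59 ± 0.22 in HECs (adjusted p = 0.0211), each under the 2-fold limit, and the difference between them was called (-1.28 ± 0.31, adjusted p = 0.000133). Over the 12 endothelial libraries the log2 levels of Bbc3 and Bcl2l11 had a Pearson correlation of 0.90, a description across 4 groups that differ in cell type, tissue and tumour.

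Bmf (chromosome 2, 118528757-118549687, - strand), whose BH3-only product is released from the cytoskeleton on loss of attachment, was high in HEC normal alone. Its normalised counts were 84, 160 and 186 in BEC normal, 157, 175 and 157 in BEC tumour, then 467, 420 and 578 in HEC normal and 139, 121 and 87 in HEC tumour. The HEC normal libraries lay above all others, and HEC tumour overlapped BEC normal. Without tumour Bmf was higher in HECs than in BECs (log2 fold change 1.77 ± 0.30, DESeq2 adjusted p = 1.89e-08), and HEC tumour was lower than HEC normal (-2.08 ± 0.31, 4.22-fold, adjusted p = 2.05e-10). In BECs its change with tumour was 0.19 ± 0.31 (adjusted p = 0.633), and the difference between the changes in HECs and BECs was called (-2.27 ± 0.43, adjusted p = 9.83e-07).

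Pmaip1 (chromosome 18, 66458533-66465565, + strand), the gene of NOXA, which neutralises MCL1, ran the other way. BEC normal held 550, 913 and 1032 normalised counts and BEC tumour 200, 200 and 142, against 74, 46 and 51 in HEC normal and 29, 61 and 51 in HEC tumour. All BEC libraries were above all HEC libraries. Pmaip1 was lower in HEC normal than in BEC normal by 14.6-fold (log2 fold change -3.87 ± 0.34, DESeq2 adjusted p = 7.47e-29), lower in HEC tumour than in BEC tumour (-1.94 ± 0.35, adjusted p = 1.48e-07) and, within BECs, lower with tumour (-2.20 ± 0.33, adjusted p = 1.14e-10). In HECs its change with tumour was -0.27 ± 0.36 (adjusted p = 0.622), and the difference between the changes was called at 1.93 ± 0.49 (adjusted p = 0.000281).

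Bid (chromosome 6, 120891930-120916853, - strand), whose product links death receptors to mitochondria after cleavage by caspase-8, was the remaining BH3-only member. It stood at 3577, 1676 and 3247 normalised counts in BEC normal, 2258, 2206 and 2250 in BEC tumour, then 1345, 1358 and 1387 in HEC normal and 1359, 1448 and 1308 in HEC tumour. All HEC libraries were below all BEC libraries, and the 2 HEC groups overlapped. The log2 fold change was -1.06 ± 0.22 in HEC normal against BEC normal (DESeq2 adjusted p = 3.82e-06) and -0.71 ± 0.22 in HEC tumour against BEC tumour (adjusted p = 0.00305). The first lay near the 2-fold limit and fell under it without BEC normal replicate 1 (-0.86) or 3 (-0.96). Exons of Bcl2l13 cover 17.7% of the exon bases of Bid, and whether the reads were counted by strand is not stated.

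**Figure D2:**
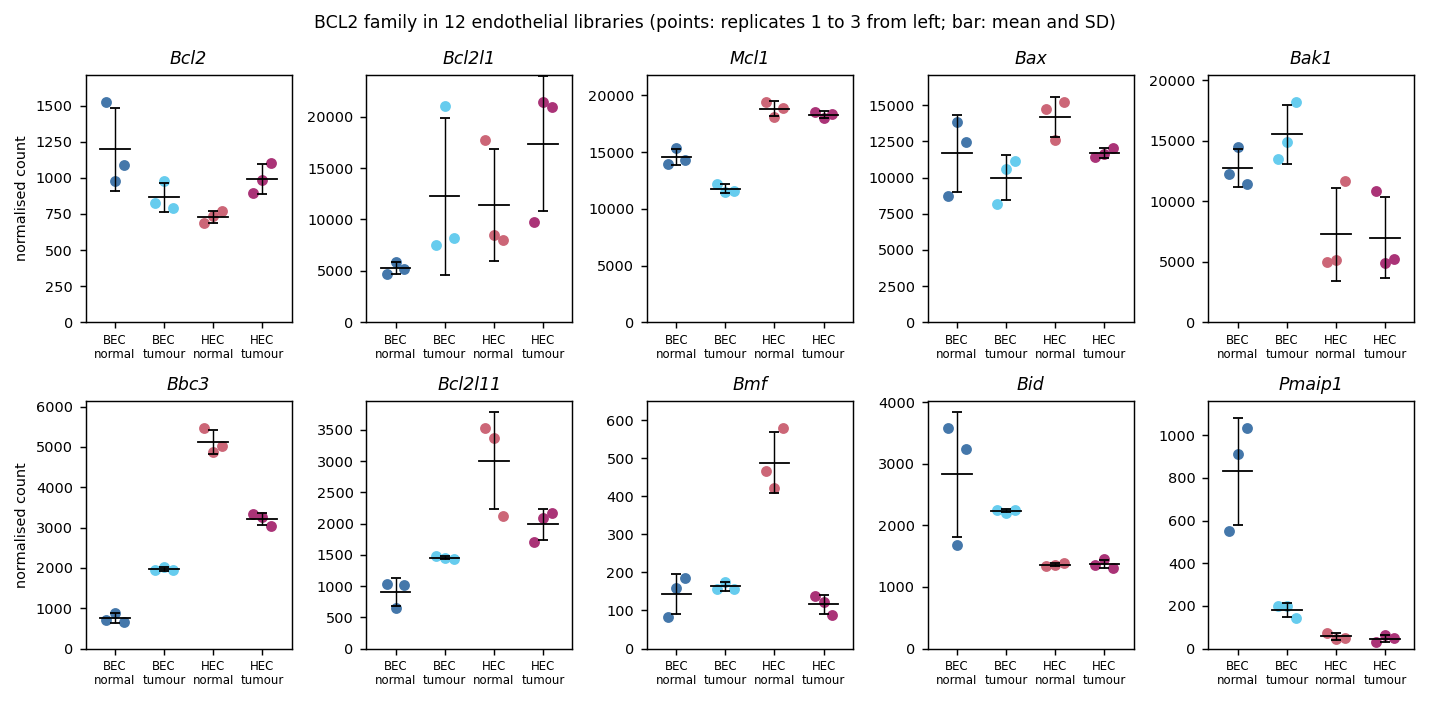
Normalised counts (y axes, from 0) of the 10 BCL2 family genes in the 12 endothelial libraries; points are replicates 1 to 3, bars are means with SD. Bbc3 separates all 4 groups, Bmf is high in the 3 HEC normal libraries, Pmaip1 is low in all 6 HEC libraries, and Bcl2l1 and Bak1 split within groups.

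Of the pro-survival members, Mcl1 (chromosome 3, 95658788-95663176, + strand), a short-lived protein that restrains BAK and BIM, was the steadiest. Its normalised counts were 13993, 15357 and 14342 for BEC normal, 12199, 11479 and 11595 for BEC tumour, then 19410, 18093 and 18906 for HEC normal and 18565, 17961 and 18346 for HEC tumour. HECs were above BECs in every library, and the 2 HEC groups overlapped. The differences passed the adjusted p but stayed under the 2-fold limit, at 0.37 ± 0.05 on the log2 scale for HEC normal against BEC normal (DESeq2 adjusted p = 1.07e-11), 0.64 ± 0.05 for HEC tumour against BEC tumour (adjusted p = 2.63e-32) and -0.31 ± 0.05 for BEC tumour against BEC normal (adjusted p = 2.44e-08).

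Bcl2 (chromosome 1, 106538178-106714274, - strand), the founding pro-survival member, lay between 685 and 1526 normalised counts. The BEC normal libraries held 1526, 980 and 1087, those of BEC tumour 825, 980 and 791, those of HEC normal 685, 736 and 771 and those of HEC tumour 896, 983 and 1100. BEC normal replicate 1 was the highest of all, and HEC normal lay below the other groups. No difference reached 2-fold, but 3 passed the adjusted p by DESeq2, namely -0.71 ± 0.18 for HEC normal against BEC normal (adjusted p = 0.000137), -0.47 ± 0.18 for BEC tumour against BEC normal (adjusted p = 0.0166) and 0.44 ± 0.18 for HEC tumour against HEC normal (adjusted p = 0.0381). The last 2 point in opposite directions, and their difference was 0.91 ± 0.25 (adjusted p = 0.000924), past the 2-fold limit only without BEC normal replicate 2 (1.04) or BEC tumour replicate 2 (1.01). An antisense gene, D630008O14Rik, overlaps 6.1% of the exon bases of Bcl2.

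Bcl2l1 (chromosome 2, 152780668-152831728, - strand), the gene of BCL-XL, varied more within groups than between most of them. BEC normal was even at 4684, 5833 and 5215 normalised counts, whereas BEC tumour read 7536, 21076 and 8212, HEC normal 17748, 8501 and 8035 and HEC tumour 9785, 21429 and 20925. No library lay between 9785 and 17748, and every group but BEC normal had libraries on both sides of that gap. Relative to BEC normal, Bcl2l1 was called higher in HEC normal (log2 fold change 1.12 ± 0.52, DESeq2 adjusted p = 0.0473) and in BEC tumour (1.23 ± 0.52, adjusted p = 0.0345). Each call rested on 1 library above the gap. Without HEC normal replicate 1 the first was 0.66 (adjusted p = 0.27), and without BEC tumour replicate 2 the second was 0.59 (adjusted p = 0.271). Leaving out any 1 BEC normal library also ended both calls, with adjusted p between 0.0663 and 0.13. Without BEC tumour replicate 2, HEC tumour was called higher than BEC tumour (1.14, adjusted p = 0.0207), a difference that was 0.50 ± 0.52 with it (adjusted p = 0.429). The annotation lists 9 transcripts of Bcl2l1, which include more than one protein form, and gene values cannot tell them apart.

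The effector Bax (chromosome 7, 45461697-45466898, - strand) showed no call in endothelium and ran from 8196 to 15213 normalised counts. Its largest log2 fold change was 0.28 ± 0.17 for HEC normal against BEC normal (DESeq2 adjusted p = 0.127). A predicted gene, Gm45808, overlaps 12.2% of its exon bases. Bak1 (chromosome 17, 27019810-27029009, - strand) split within groups as Bcl2l1 did. It stood at 12306, 14493 and 11455 normalised counts in BEC normal and at 13481, 14904 and 18217 in BEC tumour, but at 4961, 5156 and 11676 in HEC normal and 10891, 4875 and 5262 in HEC tumour. HEC normal replicate 3 and HEC tumour replicate 1 thus lay near the BEC level, and the other 4 HEC libraries well below. Bak1 was called lower in HEC tumour than in BEC tumour (log2 fold change -1.15 ± 0.44, DESeq2 adjusted p = 0.0173), a call lost without BEC tumour replicate 3 (adjusted p = 0.0828), HEC tumour replicate 2 (0.0802) or HEC tumour replicate 3 (0.0771). In HEC normal against BEC normal it was -0.81 ± 0.44 (adjusted p = 0.0922), and -1.33 (adjusted p = 1.55e-05) without HEC normal replicate 3. Exons of Ggnbp1 cover 25.5% of the exon bases of Bak1.

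Such splits were uncommon among well expressed genes. Of the genes with a mean above 1000 normalised counts, the highest library exceeded the lowest by over 2-fold in 3.11% in BEC normal, 2.97% in BEC tumour, then 2.84% in HEC normal and 3.29% in HEC tumour. Bcl2l1 did so in 3 of the 4 groups (2.80-fold in BEC tumour, 2.21-fold in HEC normal, 2.19-fold in HEC tumour), Bak1 in both HEC groups (2.35-fold and 2.23-fold) and Bid in BEC normal (2.13-fold). In EO771 cells neither Bcl2l1 nor Bak1 did.

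**Figure D3:**
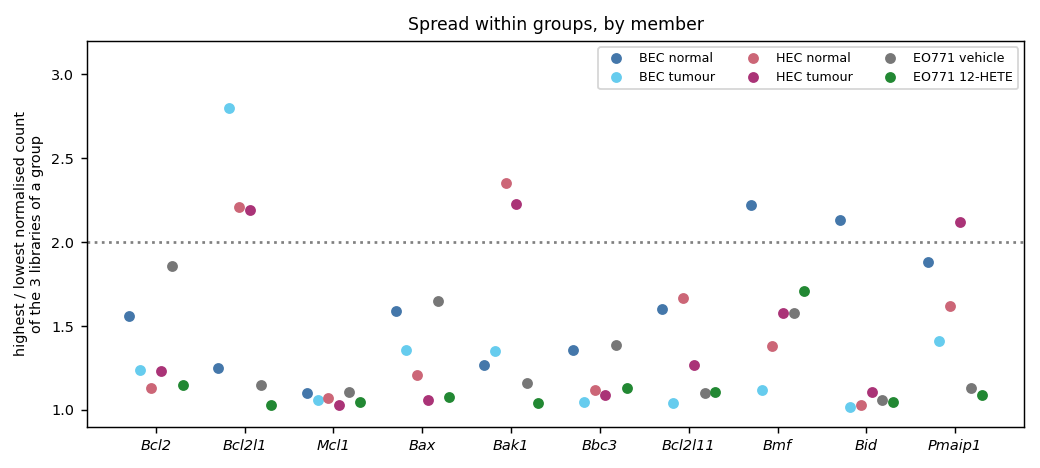
Highest divided by lowest normalised count among the 3 libraries of each group (y axis, a ratio; dotted line at 2), for each of the 10 members (x axis), coloured by group. Bcl2l1 exceeds 2 in BEC tumour, HEC normal and HEC tumour, Bak1 in both HEC groups, Bmf and Bid in BEC normal and Pmaip1 in HEC tumour.

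The calls can also be counted over the family. In HEC normal against BEC normal 6 of the 10 members were called, 4 higher (Bbc3, Bmf, Bcl2l11, Bcl2l1) and 2 lower (Pmaip1, Bid), where 32.2% of all tested genes were called. By the adjusted p alone it was 8 of 10, against 63.3% of all genes. The median log2 fold change of the members was 0.32, beside 0.005 over all tested genes.

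In HEC tumour against BEC tumour 2 of 10 were called, both lower (Pmaip1, Bak1), against 21.9% of all genes, and by the adjusted p alone 5 of 10 against 54.3%. In BEC tumour against BEC normal 3 of 10 were called (Bbc3 and Bcl2l1 higher, Pmaip1 lower), against 23.3% of all genes, and 6 of 10 against 53.7% by the adjusted p alone. In HEC tumour against HEC normal 1 of 10 was called (Bmf, lower), against 7.8% of all genes, and 4 of 10 against 35.4% by the adjusted p alone. For the difference between the changes with tumour in HECs and BECs, 4 of 10 were called (Bbc3, Bmf, Bcl2l11 and Pmaip1), against 23.3% of all genes, and 6 of 10 against 46.7% by the adjusted p alone. All 4 are BH3-only genes. With tumour, Bbc3 and Bcl2l11 were higher in BECs and lower in HECs, Bmf was lower in HECs, and Pmaip1 was lower in BECs. These comparisons share groups with each other.

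**Figure D4:**
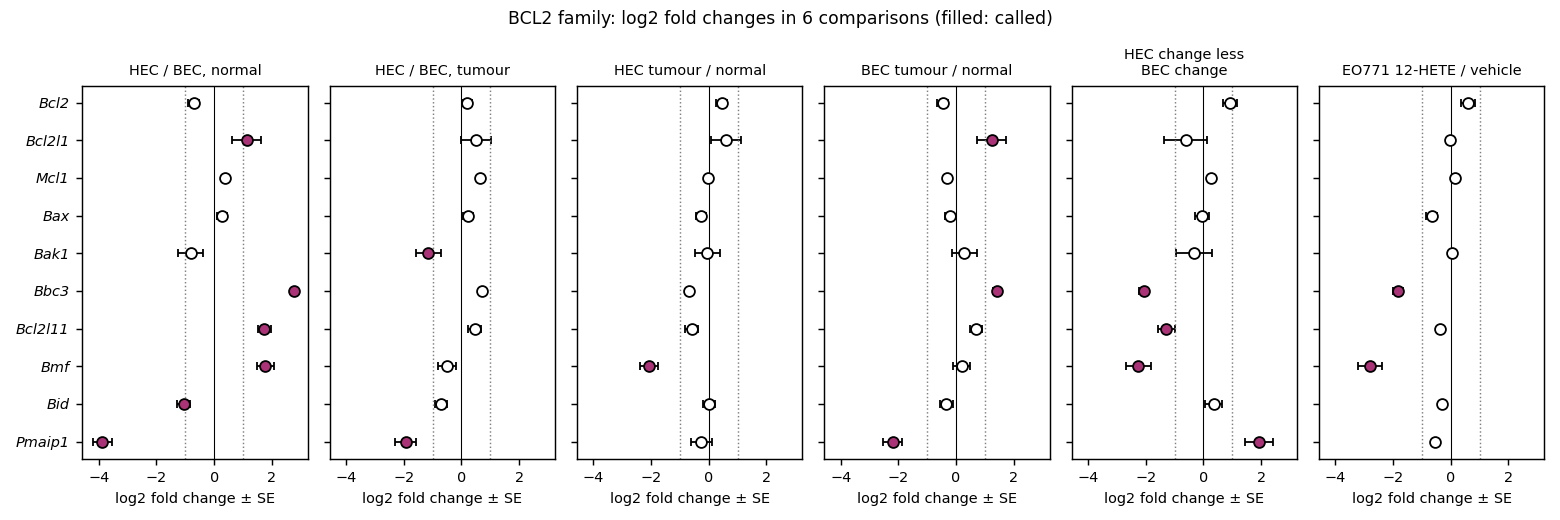
Log2 fold change with SE (x axes) of the 10 members (rows) in the 6 comparisons (panels), from DESeq2; filled points are called, and dotted lines mark log2 fold changes of 1 and -1. Bbc3 runs from 2.78 in HECs against BECs without tumour to -2.07 for the difference between the changes with tumour, and in EO771 cells Bbc3 and Bmf are the filled points.

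12-HETE went with lower BH3-only transcripts in EO771 cells. Other transcripts also moved with the treatment. The 7 epithelial markers summed to 3243 to 4251 CPM with vehicle and to 2184 to 2240 CPM with 12-HETE, and the 9 fibroblast and pericyte markers, nearly all of it Dcn, to 390 to 614 CPM and 998 to 1037 CPM. Their part in the results was not tested. Bmf counts, as deposited, were 75, 81 and 48 with vehicle and 10, 7 and 12 with 12-HETE, the lowest of all members. The normalised counts fell from 66.9 ± 15.5 (SD, n = 3) to 9.66 ± 2.51, a log2 fold change of -2.79 ± 0.42 (6.94-fold lower, DESeq2 adjusted p = 3.93e-10). Bbc3 read 669, 932 and 688 normalised counts with vehicle and 220, 200 and 226 with 12-HETE. The groups lay far apart, and Bbc3 was lower by 3.54-fold with 12-HETE (log2 fold change -1.82 ± 0.17, adjusted p = 3.61e-25). These 2 genes were the only members called, 2 of 10 against 10.2% of all tested genes.

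By the adjusted p alone 7 of the 10 members passed in EO771 cells, 6 lower and 1 higher, against 47.0% of all genes. Beside Bmf and Bbc3, all other BH3-only members were among those lower with 12-HETE. Pmaip1 read 2319, 2626 and 2538 normalised counts with vehicle and 1622, 1693 and 1770 with 12-HETE, a log2 fold change of -0.56 ± 0.10 (DESeq2 adjusted p = 4.8e-08). The groups did not overlap. Bcl2l11 went from 1510 ± 78.5 to 1165 ± 59.7 normalised counts (SD, n = 3; -0.37 ± 0.10, adjusted p = 0.000508) and Bid from 1547 ± 56.6 to 1261 ± 34.3 (-0.30 ± 0.09, adjusted p = 0.0026), also without overlap.

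Bax, Bcl2 and, to a lesser degree, Bbc3 showed vehicle replicate 2 standing apart. Bax read 3209, 4876 and 2949 normalised counts with vehicle and 2377, 2400 and 2213 with 12-HETE (log2 fold change -0.66 ± 0.18, DESeq2 adjusted p = 0.00132), and without vehicle replicate 2 its change was -0.41 (adjusted p = 6.88e-06). Bcl2 read 185, 102 and 190 with vehicle and 223, 250 and 256 with 12-HETE (0.61 ± 0.24, adjusted p = 0.0279), and 0.37 (adjusted p = 0.05) without that library. Without it Bbc3 was at -1.66 and Bmf at -2.68, both still called. Bcl2l1 and Bak1 overlapped between the treatments, and Mcl1 lay just above the vehicle libraries with 12-HETE, with log2 fold changes of -0.04 ± 0.09 for Bcl2l1, 0.05 ± 0.10 for Bak1 and 0.13 ± 0.08 for Mcl1 (adjusted p = 0.718, 0.716 and 0.181). The median log2 fold change of the members was -0.33, beside 0.001 over all tested genes. Only cultured cells of one line entered this comparison. The labels give no dose or time, and the study's methods describe a single dose and a single duration.

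**Figure D5:**
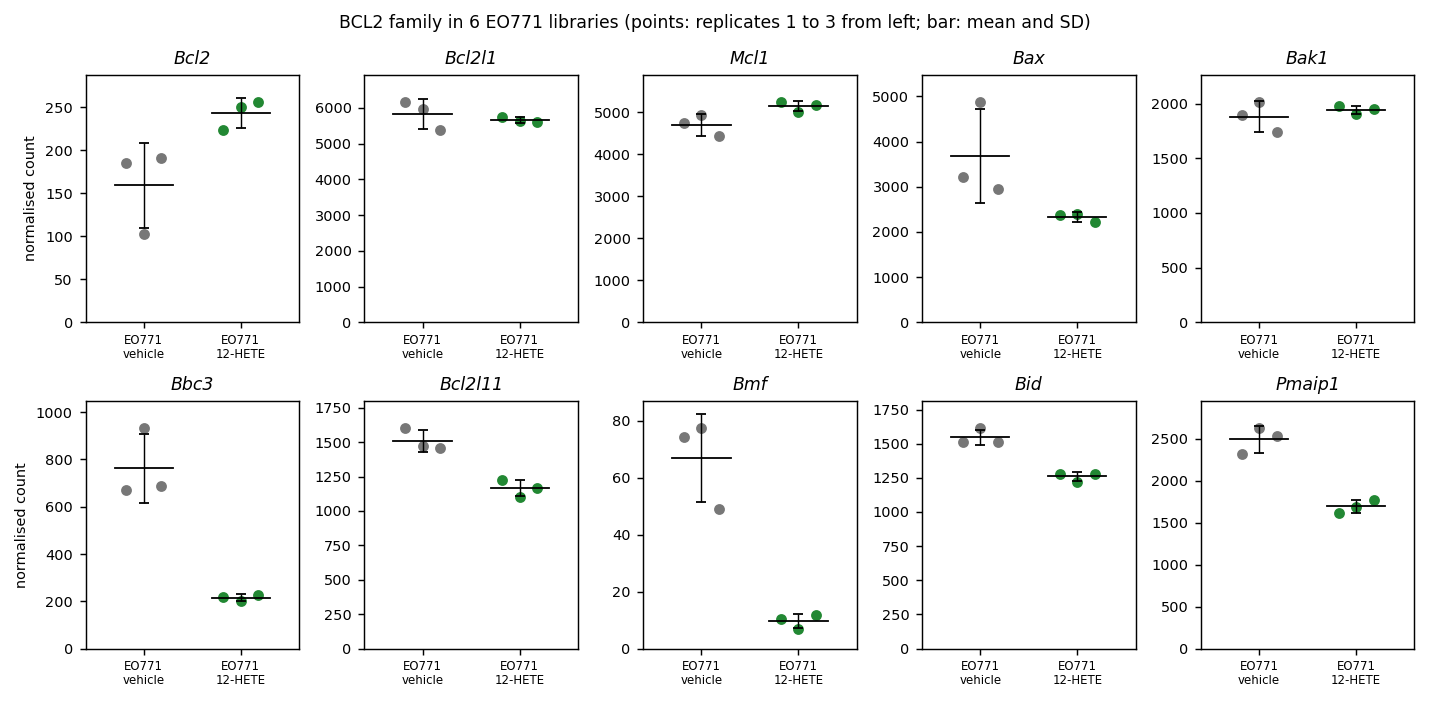
Normalised counts (y axes, from 0) of the 10 BCL2 family genes in the 6 EO771 libraries; points are replicates 1 to 3, bars are means with SD. Bbc3 and Bmf are several-fold lower in the 3 libraries with 12-HETE (3.54-fold and 6.94-fold), Pmaip1, Bcl2l11 and Bid are lower without overlap, and vehicle replicate 2 stands apart for Bax and Bcl2.

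The rest of the BCL2 family, 15 further genes of which 11 were tested in endothelium and 8 in EO771 cells, included 2 mitophagy receptors, a BAX-like effector and several genes with low counts among those called. Bnip3, a BH3-only-like receptor that marks mitochondria for autophagy and is induced by hypoxia, stood at 1838 normalised counts on average in BEC normal, 810 with tumour, 4744 in HEC normal and 2463 with tumour. It was called higher in HECs without tumour (log2 fold change 1.37 ± 0.15) and with tumour (1.61 ± 0.16), and lower with tumour in BECs (-1.18 ± 0.16). In EO771 cells Bnip3 read 722, 860 and 531 with vehicle and 174, 94 and 88 with 12-HETE (-2.58 ± 0.27, DESeq2 adjusted p = 1.71e-19). Its relative Bnip3l was higher in HECs both without tumour (1.49 ± 0.06) and with tumour (1.15 ± 0.06), and not called in EO771 cells (0.02 ± 0.10). Bok, a BAX-like effector, was highest in BEC normal, at 2433, 1500 and 2351 normalised counts, and lower in HEC normal (-1.31 ± 0.19) and in BEC tumour (-1.43 ± 0.19), with a called difference between the changes with tumour (1.65 ± 0.28, adjusted p = 1.29e-08).

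Bcl2l15 read 0 to 11.2 normalised counts in BEC normal, 18.6 to 54.1 in BEC tumour, then 208 to 330 in HEC normal and 455 to 616 in HEC tumour, and it was called in both comparisons of HECs with BECs (log2 fold changes 5.12 ± 0.54 and 3.99 ± 0.46) and in BEC tumour against BEC normal (2.17 ± 0.56). Bcl2l14 was called in HEC tumour against BEC tumour from 37.5 to 55.4 against 0 to 6.77 normalised counts, and in EO771 cells, where it was at 408 to 498 with vehicle and at 102 to 115 with 12-HETE (-2.03 ± 0.16, DESeq2 adjusted p = 6.08e-34). Bcl2a1b, a pro-survival gene of leukocytes, was at 198 to 433 normalised counts in BEC tumour, the group with the myeloid transcripts given above, at 0 to 36.2 in BEC normal and listed at 0 in all HEC and EO771 libraries. Bcl2a1b was called lower in HECs with and without tumour, although 1 BEC normal library was also at 0, and the overlapping gene Gm29094 covers 49.1% of its exon bases.

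Over this list, 5 of 11 were called in HEC normal against BEC normal (32.2% of all tested genes were), 5 in HEC tumour against BEC tumour (21.9%), 3 in BEC tumour against BEC normal (23.3%), 1 for the difference between the changes (Bok; 23.3%) and 2 of 8 in EO771 cells (10.2%). In HEC tumour against HEC normal 0 of 11 were called by DESeq2 and 0 by edgeR, where DESeq2 called 7.8% of all genes. By the DESeq2 adjusted p alone 3 of 11 passed, all lower, against 35.4% of all genes, and 4 had an unadjusted p under 0.05. Bcl2l2, the gene of the pro-survival protein BCL-W, was not called anywhere and split within groups like Bcl2l1, with 2302, 688 and 671 normalised counts in BEC tumour and 686, 1213 and 2652 in HEC tumour.

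Downstream and upstream genes of the pathway were counted in the same way, and their counts are to be read against the same shares of all tested genes, which were 32.2% in HEC normal against BEC normal, 21.9% in HEC tumour against BEC tumour, 7.8% in HEC tumour against HEC normal, 23.3% both in BEC tumour against BEC normal and for the difference between the changes, and 10.2% in EO771 cells. Nothing particular to these lists is read from the counts. Of 13 caspase and apoptosome genes, 2 were called in HEC normal against BEC normal, both lower and a smaller share than over all genes (Dffa, the inhibitor of the caspase-activated nuclease, -1.67 ± 0.11, and Casp6, -1.02 ± 0.13), and 3 in HEC tumour against BEC tumour (Dffb, the nuclease itself, 1.31 ± 0.16, Casp9, the initiator caspase of the mitochondrial route, -1.51 ± 0.40, and Dffa, -1.04 ± 0.11). Casp9 and Dffb were also the 2 called in HEC tumour against HEC normal (-1.18 ± 0.40 and 1.08 ± 0.16) and the 2 called for the difference between the changes (-1.54 ± 0.57 and 2.02 ± 0.23). In BEC tumour against BEC normal Endog (-1.13 ± 0.35) and Casp6 (-1.03 ± 0.13) were called lower, and in EO771 cells Dffb was (-1.15 ± 0.44, DESeq2 adjusted p = 0.0225).

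Of 6 inhibitors of apoptosis, 1 was called in HEC normal against BEC normal (32.2% of all genes) and 2 in HEC tumour against BEC tumour (21.9%). Naip2 was called lower in HECs without tumour (-2.14 ± 0.32) and with tumour (-2.36 ± 0.33), and Xiap, which blocks caspases directly, higher in HEC tumour than in BEC tumour (1.15 ± 0.17). Of 9 death receptor genes, 1 was called in each of HEC normal against BEC normal (32.2% of all genes), BEC tumour against BEC normal (23.3%), the difference between the changes (23.3%) and EO771 cells (10.2%). Casp8, the caspase that cleaves BID, was lower in HEC normal (-1.11 ± 0.06) and in BEC tumour (-1.13 ± 0.06) than in BEC normal, with a called difference between the changes (1.08 ± 0.09). In EO771 cells the receptor gene Fas was lower with 12-HETE, at 56.4 against 119 normalised counts on average (-1.07 ± 0.25, DESeq2 adjusted p = 8.29e-05).

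Of 19 tested genes that regulate the family, 2 were called in HEC normal against BEC normal (32.2% of all genes) and 5 in HEC tumour against BEC tumour (21.9%). Jun, the AP-1 factor, and Mdm2, which restrains p53, were higher in HECs without tumour (2.80 ± 0.04 and 1.43 ± 0.07) and with tumour (1.33 ± 0.04 and 1.72 ± 0.07). The comparison with tumour had 3 genes called lower, led by Stat3 (-1.31 ± 0.10) and Stat5a (-1.14 ± 0.11). Stat3 was the 1 gene of this list called in HEC tumour against HEC normal (-1.25 ± 0.10; 7.8% of all genes), and Jun the 1 in BEC tumour against BEC normal (1.51 ± 0.04; 23.3%). For the difference between the changes 3 were called (23.3% of all genes), all negative, with Jun (-1.46 ± 0.06) and Ddit3 (-1.21 ± 0.10) the largest.

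In EO771 cells 4 of the 19 regulators were called, all lower with 12-HETE, against 10.2% of all tested genes. Ddit3, the stress factor CHOP, went from 1376 to 244 normalised counts on average (-2.50 ± 0.18, DESeq2 adjusted p = 1.3e-40) and Jun from 1999 to 451 (-2.15 ± 0.12, adjusted p = 5.47e-69). The other 2 were Cdkn1a (-1.33 ± 0.23) and Foxo3 (-1.27 ± 0.12), named after their values were seen. FOXO3 is known to induce Bbc3 and Bcl2l11, and CHOP and JUN are known as inducers of BH3-only genes. Whether the lower levels of these regulators bear on the BH3-only transcripts here was not tested.

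The genes whose log2 levels followed each member most closely over the 12 endothelial libraries were, by Pearson correlation among 18511 genes, Gm13583 (0.995), Khnyn (0.994) and Pim1 (0.993) for Bbc3, and AU020206 (0.96), Gm7536 (0.96) and Napb (0.956) for Bcl2l11. For Bmf they were Pck2 (0.961), Gnb5 (0.961) and Lrrc42 (0.952), for Pmaip1 Akr1e1, Elp2 and Lman2l (0.984 each), and for Bid Gm14599 (0.965), Ppp4r4 (0.964) and Rab2b (0.958). Bcl2l1 was followed by Nectin3 (0.937), 1700092M07Rik (0.869) and Evpl (0.865), and Bak1 by Epsti1 (0.918), Ehmt1 (0.914) and Gm5873 (0.909). The 12 points fall into 4 groups, and for Bcl2l1 and Bak1 the libraries also split within groups, so these values describe the pattern over libraries as well as over groups.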

How the data were processed

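RNA-seq of 12 endothelial and 6 EO771 libraries (3 per group, groups from the labels) was analysed. Per the study's methods, the authors used STAR (GRCm38) for alignment and featureCounts for fragment counts per gene; the strand setting is not given in the sources used here. The EO771 table was deposited as raw counts. The endothelial values were deposited as whole numbers in steps, so they were treated as estimated counts from the authors' counting, deposited without stated scaling, and DESeq2 errors take each unit as one count.

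Genes with a mean value of at least 10 were tested with DESeq2 (version 1.42.0; Wald test, Benjamini-Hochberg), in one fit of the 12 endothelial and one of the 6 EO771 libraries; called means an adjusted p under 0.05 and a fold change over 2. Alternatives included edgeR (version 4.0.16, quasi-likelihood with TMM), other scalings, no filter, division by the step, leaving out each library and a replicate block. An exact two-sided permutation test of 3 against 3 cannot go below 0.1 and was not used. TPM and CPM were computed from the deposited values and GENCODE vM21 exon lengths. The script was tested on simulated data.

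Members and gene lists were chosen with earlier results of these data known. All members, other family genes that were called, and at most the 2 higher and 2 lower called genes of each pathway list with the largest change are named. Cdkn1a and Foxo3 in EO771 cells, named after their values were seen, and the uncalled Bcl2l2 lie outside that rule. The labels do not say whether replicates came from separate animals or cultures; the study describes them as independent experiments, and p-values measure the spread between these libraries. Equal replicate numbers deviated together in EO771 cells (correlations 0.11, 0.17 and 0.33 over genes with a mean above 100). A pairing is therefore possible there, although the labels give none. The EO771 values printed come from the fit without a block, and the blocked fit changed no call there.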

Additional observations from a re-analysis of the deposited data

Results flagged for a closer look

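By the interaction term of DESeq2, 5 genes of the family changed differently with tumour in the 2 cell types. The change in BECs also spans 2 tissues, fat pad and tumour, whereas both HEC groups came from lymph nodes. On the log2 scale the change in HECs less that in BECs was -2.07 for Bbc3, -2.27 for Bmf, -1.28 for Bcl2l11 and 1.93 for Pmaip1. It was 1.65 for Bok, the BAX-like effector. Bbc3 and Bcl2l11 had changes of opposite direction, Bmf moved past both limits in HECs, and Pmaip1 and Bok in BECs. BEC tumour carried myeloid transcripts (1462 to 1961 CPM over 8 markers, mostly Lyz2 and Cd68). Its epithelial markers summed to 19.95 to 93.56 CPM, against 3.606 to 6.925 CPM in BEC normal. BEC normal carried transcripts of the fibroblast and pericyte list (845 to 855 CPM over 9 markers, mostly Acta2 and Col1a1). The part of these transcripts in the differences above was not tested. Groups of 3 libraries were too small for a search for outlying samples.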

How the results depend on the processing

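Of the 6 counts of members called, all stayed within 1.5 times under edgeR, other scalings, no filter, division by the step and a fit of the 6 libraries compared. The adjusted p alone gave 5 in HEC tumour against BEC tumour, 4 in HEC tumour against HEC normal, 6 in BEC tumour against BEC normal and 7 in EO771 cells. A test against a 2-fold change left 3 in HEC normal against BEC normal (Bbc3, Pmaip1 and Bcl2l11), 0 in HEC tumour against BEC tumour and 2 for the difference between the changes (Bbc3 and Bmf). Leaving out 1 library gave 4 to 7 in HEC normal against BEC normal, 1 to 3 in HEC tumour against BEC tumour, 1 in HEC tumour against HEC normal, 2 to 3 in BEC tumour against BEC normal, 4 to 5 for the difference and 2 in EO771 cells.

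With the replicate block the counts were 6, 2, 1, 2 and 4 in the endothelial comparisons and 2 in EO771 cells; the block ended only the call of Bcl2l1 in BEC tumour against BEC normal (log2 fold change 1.14, adjusted p = 0.0538). Endothelial libraries share only a number, with correlations of -0.03 to 0.13 between equal numbers. Without the filter Bcl2l1 lost its call in HEC normal against BEC normal (adjusted p = 0.0541).

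Uncalled members changed direction in these cases. In HEC tumour against HEC normal, scaling by total values gave 0.034 for Mcl1 and 0.02 for Bak1, Bid was at -0.015 with TMM in edgeR and in DESeq2, and leaving out 1 library gave -0.518 to 0.467 for Bak1 and -0.032 to 0.041 for Bid. Leaving out 1 library gave -0.091 to 0.419 for Bmf in BEC tumour against BEC normal, and -0.009 to 0.091 for Bak1 in EO771 cells. For the difference between the changes it gave -0.879 to 0.019 for Bcl2l1, -0.184 to 0.126 for Bax and -0.807 to 0.181 for Bak1. Depth limits Bmf in EO771 cells (7 to 12 counts with 12-HETE) and Pmaip1 in HECs.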
